A study of Mus musculus with 4 samples.

Results

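The GATA-SCL factors are the transcription factors and adaptor proteins that direct blood progenitors toward red cells, megakaryocytes and mast cells. Probe sets were taken whose gene symbol in the platform annotation was Gata1, Gata2, Zfpm1, Tal1, Lyl1, Lmo2, Ldb1, Nfe2, Gfi1b or Klf1. All 10 genes were measured, with 12 of 45037 probe sets, and they are 10 of the 18193 genes tested. Each was represented by its brightest probe set, and Gata2 and Zfpm1 had a second one. RNA came from LSK cells, the lineage-negative, cKit+ and Sca1+ fraction of mouse bone marrow, which contains the stem cells of the blood and progenitors of several lineages. The Ncstn KO group (genotype Ncstn flox/flox Mx1-cre+) held 2 arrays, replicate 1 from a female and replicate 2 from a male. The WT group held Ncstn flox/flox littermates without cre, with replicate 1 from a male and replicate 2 from a female. Mice of both groups received 3 injections of polyIC at 20 mcg per g of body weight from 14 days of age and were killed 4 weeks after injection, when 6 weeks old. Mx1-cre is a recombinase gene switched on by interferon in many cell types, so deletion was not limited to LSK cells, and the WT mice carried no recombinase.

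Gata1 and Gata2 are zinc finger proteins that bind the DNA word GATA. In erythroid and megakaryocytic cells they sit beside a dimer of Tal1 (also called SCL) or its relative Lyl1 with an E protein, and Lmo2 and Ldb1 bridge the DNA-bound partners. Gata2 acts in stem cells and early progenitors and Gata1 takes over its sites as red cells and megakaryocytes form, with Zfpm1 (FOG-1) as the cofactor of Gata1. Gfi1b, Klf1 and Nfe2 act downstream as a repressor, an activator of globin genes and an activator of globin and platelet genes.

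The targeted gene checked the labels. Ncstn, which encodes the gamma-secretase subunit nicastrin, had intensities of 191 and 239.98 on Ncstn KO replicates 1 and 2 against 530.19 and 505 on WT replicates 1 and 2. Both Ncstn KO arrays were below both WT arrays. The targeted gene itself, with a log2 change of -1.27 (SE 0.22), did not pass the test described in the next paragraph (limma adjusted p = 0.257). Kit, which encodes the sort marker cKit, lay above the 89th percentile of gene brightness on these arrays. So did Cd34 and Flt3, which the sort as described did not use. Ly6a, which encodes Sca1, was not measured, so that part of the sort was not checked. With 4 arrays, precision is limited by their number. Changes are log2 Ncstn KO minus WT, with n = 2 per group. The median change over all genes was 0.025. Slamf1, listed with these markers and likewise not used in the sort as described, lay at percentile 74.2. Its intensities were 2147 and 1635 on Ncstn KO replicates 1 and 2 against 1390.05 and 797 on WT replicates 1 and 2. Both Ncstn KO arrays were above both WT arrays, and the change of 0.83 (SE 0.28) did not pass the test described next (limma adjusted p = 0.633). In bulk RNA, fewer cells of a type and less RNA per cell cannot be told apart.

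No member passed the test, which was limma with Benjamini-Hochberg adjustment over all genes. The same test called 0 of 18193 genes (0% of genes), and 2 of the 10 members had an unadjusted p under 0.05, both higher in Ncstn KO, against 4.96% of all genes in that direction and 1.84% in the other. The members' median change was 0.17, and 9 of 10 had a mean above WT, against 55.8% of all genes. In 5 members, Gata2, Gfi1b, Tal1, Lyl1 and Ldb1, both Ncstn KO arrays were above both WT arrays, a pattern held by 21.3% of genes. The opposite pattern was held by 0 members and by 12.8% of genes. These counts rest on the scaling of the arrays: the spiked hybridization controls averaged 12.24 in Ncstn KO and 12.04 in WT on the log2 scale, and scaling to them lowered every change by 0.20, which moved the median of all genes to -0.17 and that of the members to -0.025, with 2 members higher and 3 lower without overlap, against 6.73% and 44.6% of all genes under that scaling. Since that scaling shifts all genes alike, the members' median less that of all genes is 0.15 under both scalings by construction. The 2 members with an unadjusted p under 0.05 were Gata2 and Gfi1b. Their unadjusted limma p was 0.172 and 0.0886 after scaling to the controls, where Lmo2, lower in Ncstn KO, had 0.0277. Without the variance trend it was 0.0662 for Gata2 and 0.0392 for Gfi1b.

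**Figure D1:**
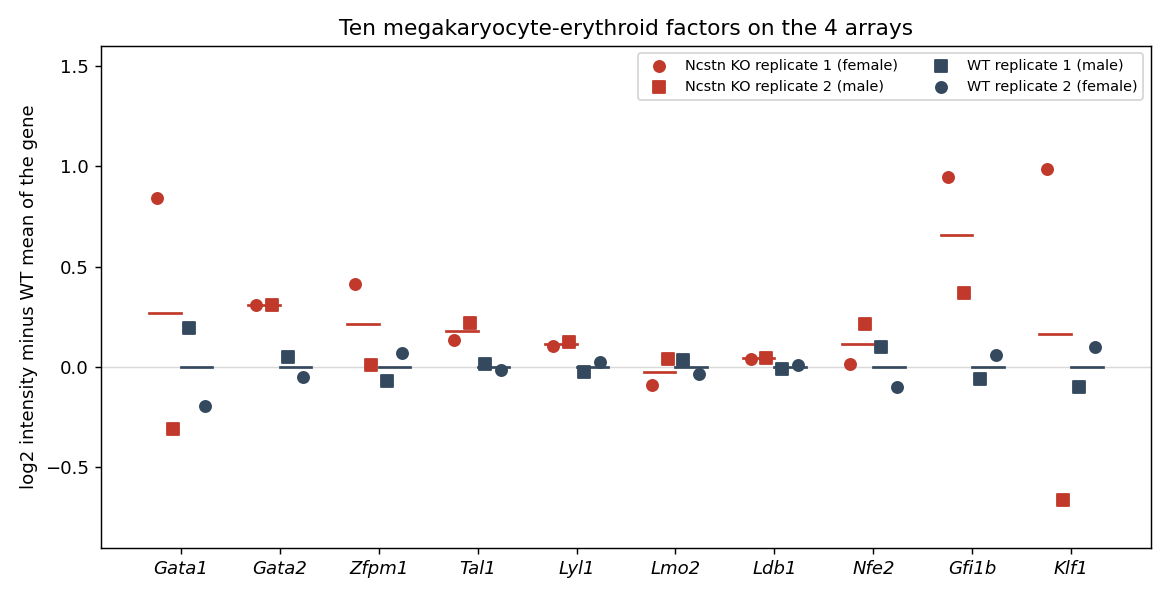
Each point is 1 array, plotted as the log2 intensity of the gene's brightest probe set minus the WT mean of that gene, with Ncstn KO in red and WT in dark blue, circles for females and squares for males, and a short line at each group mean. The Gata2 points of the 2 Ncstn KO arrays coincide above both WT points, whereas those of Gata1 and Klf1 lie at opposite ends of their columns.

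Of the GATA factors, Gata2 showed the smallest p of all members and the closest pair of Ncstn KO values. Its intensity was 7044 and 7042 on Ncstn KO replicates 1 and 2, against 5894 and 5491 on WT replicates 1 and 2. Both Ncstn KO arrays were above both WT arrays, and the gap was wider than the spread within either group. The mean log2 intensity was 12.78 ± 0.0003 in Ncstn KO and 12.47 ± 0.07 in WT (SD, n = 2 each), a change of 0.31 (SE 0.07, 95% interval 0.13 to 0.49) or 1.24-fold. Gata2 stood in place 230 of 18193 genes by p but did not pass (limma adjusted p = 0.433). Its second probe set gave log2 intensities of 12.19 on both Ncstn KO arrays against 11.78 and 11.73 on WT replicates 1 and 2. That is a change of 0.43 (SE 0.08), with no overlap between the groups and a limma adjusted p of 0.746 over 45037 probe sets. The change of Gata2 ran from 0.11 to 0.37 over the 12 alternatives, lowest after scaling to the hybridization controls. Most alternatives could not turn its sign. A block, the variance model and the removal of dim genes leave the change as it is. Without overlap, leaving out 1 array cannot reverse it. The p depended more on the settings. Unadjusted limma p for Gata2 was 0.00557 in the main fit, 0.0662 without the variance trend and 0.172 after scaling to the hybridization controls.

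Gata1, the factor that replaces Gata2 on shared sites during erythroid differentiation, divided the Ncstn KO arrays. Its intensity was 1062 and 478 on Ncstn KO replicates 1 and 2, against 677 and 517 on WT replicates 1 and 2. Ncstn KO replicate 1 was the highest and Ncstn KO replicate 2 the lowest of the 4 arrays, so the groups overlapped. The change of 0.27 (SE 0.38, 95% interval -0.67 to 1.20, adjusted p = 0.978) became -0.31 without Ncstn KO replicate 1 and 0.84 without Ncstn KO replicate 2. Within sexes the female pair differed by 1.04 and the male pair by -0.50. Per array, log2 Gata1 minus log2 Gata2 was -2.73 and -3.88 on Ncstn KO replicates 1 and 2 and -3.12 and -3.41 on WT replicates 1 and 2. This difference of 2 genes was -0.040 in Ncstn KO relative to WT, less than the spread between replicates (exact two-sided permutation p = 1, where 2 arrays against 2 allow no p below 0.333).

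Zfpm1, the multi-zinc-finger cofactor of Gata1, had intensities of 329.6 and 249 on Ncstn KO replicates 1 and 2 against 236 and 259.78 on WT replicates 1 and 2. Only Ncstn KO replicate 1 was above both WT arrays. The change was 0.21 (SE 0.24, 95% interval -0.37 to 0.79), and the second, dimmer probe set gave 0.24 (SE 0.29). Both values shrank without Ncstn KO replicate 1, to 0.011 and 0.0046, and were 0.41 and 0.48 without Ncstn KO replicate 2.

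The changes of the helix-loop-helix factors and their adaptors ran from -0.026 in Lmo2 to 0.18 in Tal1. Tal1, required for the formation of all blood cells and for erythroid and megakaryocytic maturation, had intensities of 3066 and 3249 on Ncstn KO replicates 1 and 2 against 2816 and 2765 on WT replicates 1 and 2. Its change was 0.18 (SE 0.096, 95% interval -0.057 to 0.41). Lyl1, a close relative of Tal1 that maintains stem cells beside it, had 3327 and 3368 in Ncstn KO against 3040 and 3143 in WT, a change of 0.11 (SE 0.09). In both genes the Ncstn KO arrays were above the WT arrays by a small margin, and both signs flipped when arrays were scaled to the hybridization controls, to -0.017 for Tal1 and -0.081 for Lyl1.

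Lmo2, the LIM-only protein that links Tal1 to the GATA factor, gave intensities of 8601 and 9401 on Ncstn KO replicates 1 and 2 against 9390 and 8926 on WT replicates 1 and 2. The groups overlapped, and the change of -0.026 had a 95% interval from -0.20 to 0.15. With 1 array left out it ran from -0.09 without Ncstn KO replicate 2 to 0.038 without Ncstn KO replicate 1. Ldb1, which dimerizes and so joins complexes on distant sites, had 1624 and 1629 in Ncstn KO against 1568 and 1585 in WT. Its arrays did not overlap, but the change of 0.045 (95% interval -0.24 to 0.33) corresponds to 1.03-fold, and it was -0.15 after scaling to the hybridization controls.

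Gfi1b, a zinc finger repressor that both Gata1 and Gata2 complexes can regulate and that is needed for red cells and platelets, had the largest change of the 10 members. Its intensity was 903 and 604 on Ncstn KO replicates 1 and 2 against 449 and 489 on WT replicates 1 and 2. Both Ncstn KO arrays were above both WT arrays, replicate 1 further than replicate 2. The change was 0.66 (SE 0.24, 95% interval 0.08 to 1.24) or 1.58-fold, and it did not pass (limma adjusted p = 0.671). It was 0.37 without Ncstn KO replicate 1, 0.95 without Ncstn KO replicate 2 and 0.46 after scaling to the hybridization controls. As for Gata2, most of the 12 alternatives could not turn its sign.

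Klf1, the erythroid factor that activates beta-globin and red cell membrane genes, divided the arrays as Gata1 did. Its intensity was 694 and 221 on Ncstn KO replicates 1 and 2, against 326 and 375 on WT replicates 1 and 2. Again Ncstn KO replicate 1 was the highest and replicate 2 the lowest of the 4 arrays. The 2 WT arrays were close, with an SD of 0.14 on the log2 scale against 1.17 in Ncstn KO. The change was 0.16 (SE 0.51, 95% interval -1.08 to 1.41), with 0.89 in the female pair and -0.56 in the male pair. It was -0.66 without Ncstn KO replicate 1, 0.99 without Ncstn KO replicate 2 and -0.032 after scaling to the hybridization controls.

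Nfe2, the large subunit of a dimer with small Maf proteins that drives platelet release, had intensities of 4945 and 5664 on Ncstn KO replicates 1 and 2 against 5239 and 4563 on WT replicates 1 and 2. Its groups overlapped, with the male array above the female array in each group. The change was 0.11 (SE 0.11, 95% interval -0.15 to 0.38), and it was -0.081 after scaling to the hybridization controls. Leaving out Ncstn KO replicate 2 gave 0.0165, leaving out WT replicate 2 gave 0.015, and leaving out replicate 1 of either genotype gave 0.21.

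**Figure D2:**
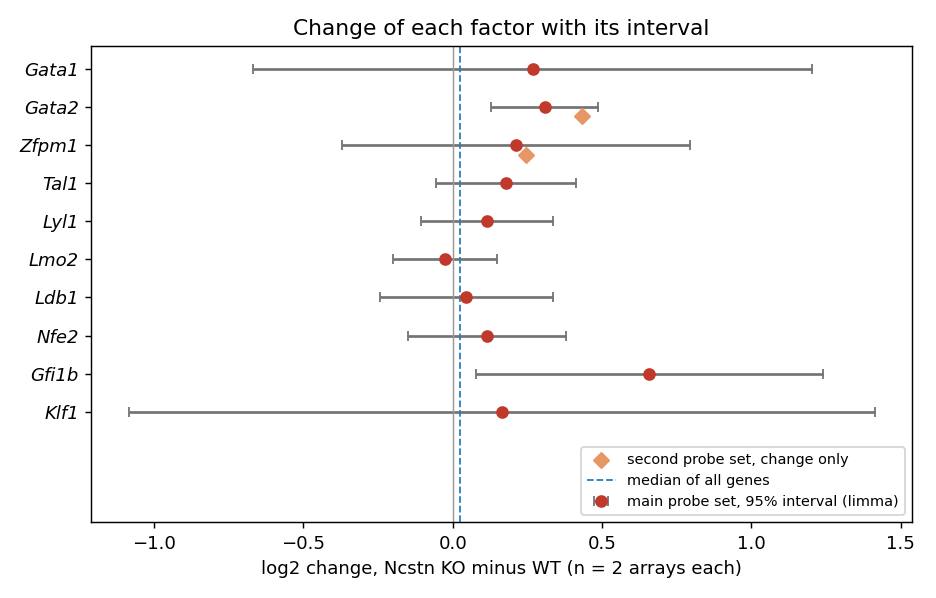
Points give the log2 change of each factor, Ncstn KO minus WT, with the 95% interval of the limma fit, and diamonds give the second probe sets of Gata2 and Zfpm1. The intervals of Gata2 and Gfi1b lie above 0, those of Gata1 and Klf1 are the widest, and the dashed line marks the median of all genes at 0.025.

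Gata1 and Klf1 were the members that set Ncstn KO replicate 1 highest and Ncstn KO replicate 2 lowest, 2 of 10. The same order of arrays was held by 16.3% of all genes, so the share among members was near the background. The reverse order was held by Lmo2, 1 of 10, and by 6.79% of genes. Ncstn KO replicate 1 was above the other 3 arrays in 5 members, against 38.6% of genes, and Ncstn KO replicate 2 in the other 5, against 23.1% of genes. Ncstn KO replicate 2 was below the other 3 arrays in 2 members, against 35.1% of genes. The female pair was above WT in 9 of 10 members (59.7% of genes) with a median change of 0.25, and the male pair in 8 of 10 (49.6% of genes) with a median of 0.097. The pairs moved in opposite directions in 3 members, Gata1, Klf1 and Lmo2, against 44.3% of genes. Sex and replicate differ together between the Ncstn KO arrays, so a difference between the sexes and one between mice cannot be told apart, and the difference between the pairs was not tested.

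**Figure D3:**
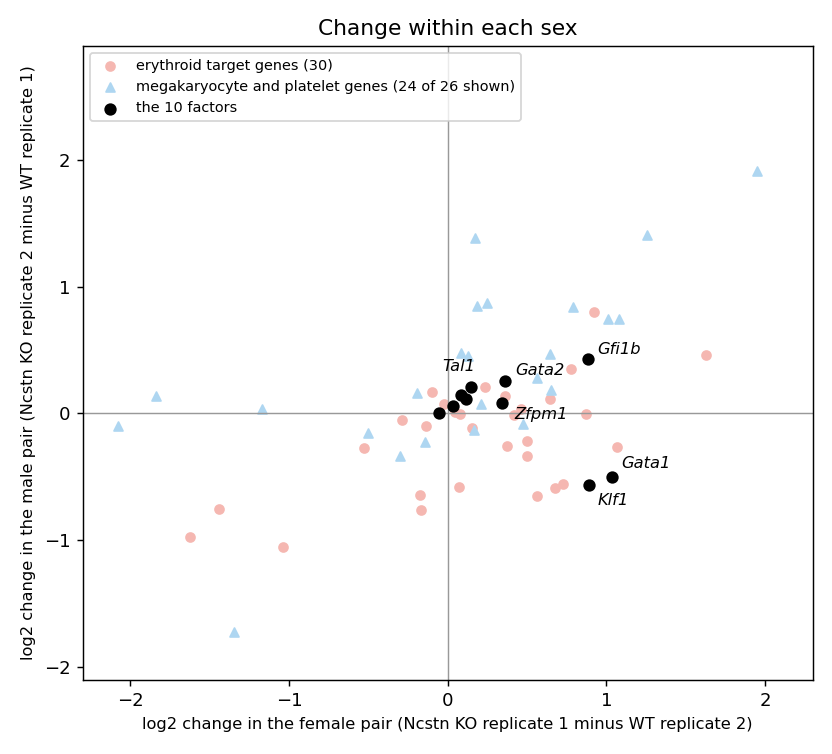
The horizontal axis gives the log2 change in the female pair and the vertical axis that in the male pair, for the 10 factors (black), 30 erythroid target genes (pink) and 24 of 26 megakaryocyte and platelet genes (blue triangles), with Ppbp and Clec1b left of the axis. Gata1 and Klf1 sit at the lower right, above WT in females and below it in males, while Gata2 and Gfi1b sit at the upper right, above WT in both.

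Promoters of the 3 members with the largest differences among arrays, Gata1, Klf1 and Gfi1b, show whether the words their own family binds stand near the start of transcription. The sequences are from RefSeq on GRCm38.p6 and cover the 250 bases before the annotated start, 5′ to 3′ on the strand of the gene, with matches to the searched words and the fixed letters of the searched composite in capitals. The Gata1 window lies at chrX:7967911-7968160 on the minus strand, that of Klf1 at chr8:84901732-84901981 on the plus strand and that of Gfi1b at chr2:28621983-28622232 on the minus strand.
Gata1: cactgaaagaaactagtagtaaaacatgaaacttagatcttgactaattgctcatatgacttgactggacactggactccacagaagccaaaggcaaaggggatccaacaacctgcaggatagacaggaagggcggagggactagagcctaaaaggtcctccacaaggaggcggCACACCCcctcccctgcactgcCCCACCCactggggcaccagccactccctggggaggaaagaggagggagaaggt
Klf1: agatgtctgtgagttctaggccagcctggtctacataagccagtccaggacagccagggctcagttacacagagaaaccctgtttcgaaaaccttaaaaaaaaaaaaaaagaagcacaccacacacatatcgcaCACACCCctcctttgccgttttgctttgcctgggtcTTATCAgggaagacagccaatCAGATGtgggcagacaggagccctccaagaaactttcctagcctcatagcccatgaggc
Gfi1b: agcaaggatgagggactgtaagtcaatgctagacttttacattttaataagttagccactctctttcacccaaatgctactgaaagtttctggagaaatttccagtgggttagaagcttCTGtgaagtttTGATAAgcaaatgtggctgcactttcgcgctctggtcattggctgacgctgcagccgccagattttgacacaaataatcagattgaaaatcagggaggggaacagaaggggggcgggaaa

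Words were searched on both strands. The GATA words were AGATAA with its variant AGATAG, and TGATAA with its variant TGATAG. The E-boxes, bound by Tal1 dimers, were CAGCTG or else CAGATG. The CACC boxes, bound by Klf1 and its relatives, were CACACCC or else CCCACCC. The core of the Nfe2 site was TGAGTCA or else TGACTCA. The Gfi1b promoter held TGATAA from 120 to 115 bases before the start, and it overlapped a composite of CTG, 9 bases of any kind and GATA that began 131 bases before the start. The Klf1 promoter held CACACCC from 116 to 110, TGATAA on the other strand from 80 to 75 and CAGATG from 59 to 54 bases before the start. The Gata1 promoter held CACACCC from 76 to 70 and CCCACCC from 54 to 48, with no match to the GATA words in this window. Of 12 promoters listed for 8 members, 4 held a GATA word, 5 a CACC box, 1 an E-box, 1 the composite and 0 the Nfe2 core. Among 32851 mouse promoters of the same length these shares were 26.5%, 21.3%, 25.5%, 2.16% and 4.46%. A match describes letters, not binding.

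Partners that share complexes with the members had changes on both sides of 0. All 31 listed genes were measured, 0 passed in either direction, and 18 lay above and 13 below WT with a median change of 0.0050, against 0.025 over all genes. Arrays did not overlap for 3 higher and 4 lower partners of 31, against 21.3% and 12.8% of all genes. Ssbp2, which stabilizes Ldb1, had intensities of 4238 and 4941 on Ncstn KO replicates 1 and 2 against 3568 and 3630.2 on WT replicates 1 and 2 (change 0.35, SE 0.10). Its relative Ssbp3 had 2666 and 2629.9 in Ncstn KO against 3067 and 3050.4 in WT (change -0.21, SE 0.095), and Med1, a Mediator subunit that binds Gata1, had a change of -0.16 (SE 0.08). Ldb2 was dim, at 14.2 and 12.1 in Ncstn KO against 16.7 and 22.0 in WT (change -0.55, SE 0.22). Among partners named here outside the rule, after their values were seen, the E protein genes Tcf3 and Tcf12 had changes of 0.10 (SE 0.14) and 0.15 (SE 0.15), the corepressor gene Cbfa2t3 -0.17 (SE 0.15) and Runx1 0.23 (SE 0.14).

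Erythroid genes that these factors are known to activate lay on both sides of WT. Of 37 listed genes 30 were measured, 0 passed in either direction, and 20 lay above and 10 below WT with a median change of 0.040. Arrays did not overlap for 5 higher and 7 lower genes, against 21.3% and 12.8% of all genes. Rhag, a red cell membrane protein, had intensities of 269 and 195 on Ncstn KO replicates 1 and 2 against 142 and 86.9 on WT replicates 1 and 2 (change 1.04, SE 0.33). Car1, a carbonic anhydrase, had 3785 and 2415 in Ncstn KO against 1384 and 1995 in WT (0.86, SE 0.26). Both were higher on each Ncstn KO array. Alas2, the erythroid enzyme that begins heme synthesis, had 34.2 and 63.7 in Ncstn KO against 125 and 105 in WT (-1.30, SE 0.36), and Trim10 had 23.8 and 44.5 in Ncstn KO against 74.9 and 64.9 in WT (-1.10, SE 0.35). These 2 were lower on each Ncstn KO array, most of all on replicate 1, the array where Rhag and Car1 were brightest. The receptor gene Epor, named outside the rule as a direct Gata1 target, had 123 and 106 in Ncstn KO against 82.7 and 71.6 in WT (0.57, SE 0.25). By pair, 20 of 30 genes were above WT in females (median 0.298), against 59.7% of all genes, and 10 of 30 in males (median -0.11), against 49.6% of all genes. Without Ncstn KO replicate 1 its median was -0.14 and without Ncstn KO replicate 2 it was 0.23.

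Megakaryocyte and platelet genes, targets of the same factors, held the largest differences of the target lists. Of 30 listed genes 26 were measured, 0 passed in either direction, and 16 lay above and 10 below WT with a median change of 0.24. Arrays did not overlap for 12 higher and 3 lower genes, against 21.3% and 12.8% of all genes. Selp, which encodes P-selectin, had intensities of 3053 and 3224 on Ncstn KO replicates 1 and 2 against 858 and 789 on WT replicates 1 and 2 (change 1.93, SE 0.13, limma adjusted p = 0.0624). The gene of integrin beta 3, Itgb3, had 1153 and 1059 in Ncstn KO against 632 and 545 in WT (0.91, SE 0.17), and the coagulation factor gene F5 had 1392 and 1324 in Ncstn KO against 738 and 806 in WT (0.82, SE 0.15). Each of the 3 was higher on both Ncstn KO arrays by a similar amount. Mmrn1, which encodes a platelet granule protein, had 222 and 235 in Ncstn KO against 777 and 563 in WT (-1.54, SE 0.23). The male pair was above WT in 19 of 26 genes (49.6% of all genes) and the female pair in 16 of 26 (59.7% of all genes). WT replicate 2 was the brightest array for 8 of the 26 genes, against 21.8% of all genes. Of these 8, Ppbp and Tubb1 are named here after their values were seen. Ppbp had 22.0 and 114 on Ncstn KO replicates 1 and 2 against 45.9 and 705 on WT replicates 1 and 2, and Tubb1 had 153 and 102 in Ncstn KO against 93.1 and 548 in WT. Without WT replicate 2 the list's median was 0.37, without Ncstn KO replicate 1 it was 0.076, without Ncstn KO replicate 2 it was 0.17, and after scaling to the hybridization controls it was 0.043.

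**Figure D4:**
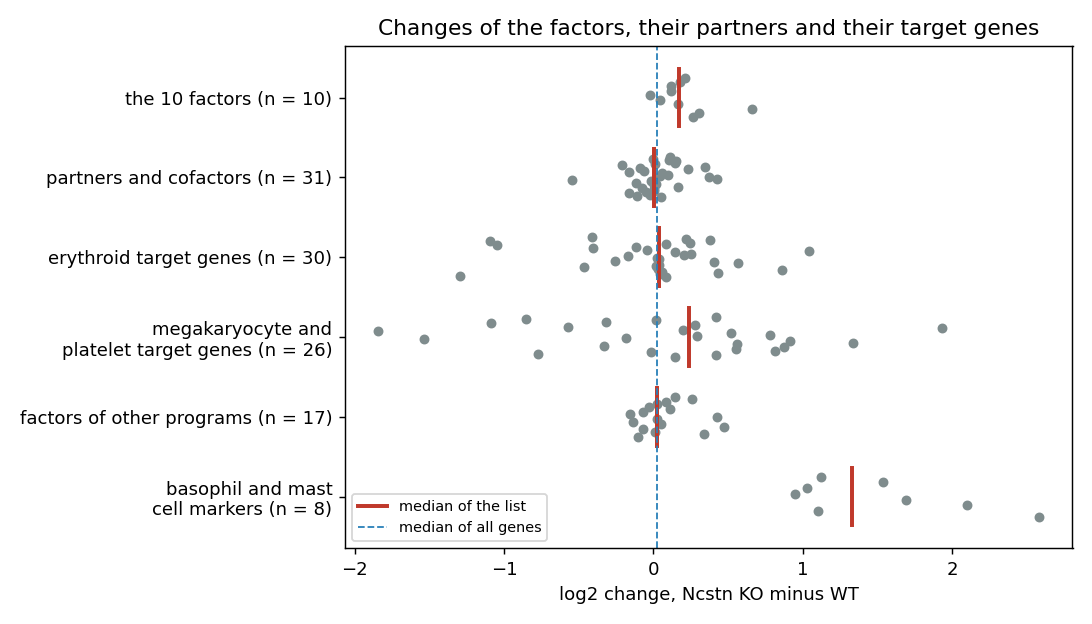
Each grey point is the log2 change of 1 gene, Ncstn KO minus WT, in the list named at the left, with the list's median as a red bar and the median of all genes as a dashed line. Basophil and mast cell markers lie furthest to the right with a median of 1.33, the megakaryocyte and platelet genes spread from -1.84 to 1.93, and the partners centre on 0.0050.

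Factors of other programs gave a comparison for the members' size of change. Of 18 listed genes 17 were measured, 0 passed in either direction, and the median change was 0.027, with 5 of 17 higher and 3 of 17 lower without overlap, against 21.3% and 12.8% of all genes. Cebpa, which drives granulocyte differentiation, had intensities of 6069 and 5627 on Ncstn KO replicates 1 and 2 against 4784 and 4483 on WT replicates 1 and 2 (change 0.34, SE 0.08). Spi1 (PU.1), a factor that binds Gata1 and opposes it, had 1030.5 and 1029 in Ncstn KO against 834 and 889 in WT (0.26, SE 0.15). Irf8 had a change of 0.43 (SE 0.15) and Gfi1, the myeloid relative of Gfi1b, 0.47 (SE 0.20). All 4 were higher on both Ncstn KO arrays, as Gata2 and Gfi1b were.

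Mast cells and basophils also use Gata1 and Gata2, and their markers were brighter on the Ncstn KO arrays. Of 10 listed markers 8 were measured, and all 8 were higher on both Ncstn KO arrays than on both WT arrays, against 21.3% of all genes. 0 of the 8 passed, the lowest limma adjusted p being 0.161, and 0 genes of the other marker lists passed. Their summed intensity was 6007 and 4680.2 on Ncstn KO replicates 1 and 2 against 2311 and 2267 on WT replicates 1 and 2. Mcpt8, Cpa3, Ms4a2 and Fcer1a, which encode 2 granule proteases and 2 chains of the IgE receptor, had changes of 1.03, 1.10, 1.54 and 2.10. The list's sum was highest on Ncstn KO replicate 1. That array was the brightest for 5 of the 10 members, against 38.6% of all genes. Ncstn KO replicate 2 was the brightest for the other 5, against 23.1% of all genes. Mature neutrophil and monocyte markers were above WT in 13 of 13 measured genes, against 55.8% of all genes, and 7 of 13 were higher without overlap, against 21.3%. Their median change was 0.75, and the 4 of smallest p, F13a1, Ccr2, Cxcr2 and Csf1r, had changes of 1.64, 1.498, 1.20 and 0.75. Their summed intensities of 53048 and 67067 in Ncstn KO against 57628 and 47623 in WT overlap, and the sums lie mostly in S100a8, S100a9, Camp, Lyz2 and Ngp, named after their values were seen, with changes from 0.010 to 0.19. Erythroblast markers had a median change of -0.51, and 3 of 6 (Alas2, Trim10 and Slc4a1) were lower without overlap, against 12.8% of all genes, Slc4a1 with a change of -1.05. The 3 above WT had changes of 0.20 (Hemgn) or less. The erythroblast sums of 2818 and 2820 in Ncstn KO against 3435 and 2557 in WT lie mostly in Hemgn. Hba-a1 and Epb42, named after their values were seen, were the dimmest, between 8.20 and 11.55 on the 4 arrays. Platelet markers were above WT in 3 of 7 genes (Gp9 0.56, Pf4 0.78 and Gp5 0.88), against 55.8% of all genes. Of the 7, 2 were higher without overlap, against 21.3%, and the median change was -0.32. Their sums were 2746 and 2680 in Ncstn KO against 1350.0 and 3409 in WT. WT replicate 2 was the brightest array for 4 of 7, against 21.8% of all genes. The part of these lists in the members' changes was not tested. Markers of B cells (4 of 7 above WT), T and NK cells (3 of 7) and stroma and endothelium (4 of 7) had no common direction, against 55.8% of all genes above WT. Single genes differed more. Ms4a1, of smallest p among the B cell markers, had 53.4 and 53.5 in Ncstn KO against 221 and 245 in WT (change -2.12, SE 0.24). In the stromal list Cxcl12 had a change of -2.17 (SE 0.93) and Pecam1 0.48 (SE 0.20), both without overlap. Intensity has no true 0, so no marker can be called absent.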

How the data were processed

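LSK cells of 4 mice, 1 array each, were compared. Per the labels, 5 ng of RNA was amplified and then labelled with biotin. Amplification of so little RNA adds noise for rare transcripts. The deposited values are probe set intensity on a linear scale (3.32 to 23642.56), made by the authors with RMA, per the submitters' processing notes. The sources used here do not name its software. Their log2 was taken for every test. Of 45101 probe sets, 64 controls were left out, 34945 named 1 gene, 932 several (unused) and 9160 none, by GEO's platform annotation; Entrez identifiers of 34741 matched RefSeq and changed 0 symbols. Each of 18193 genes was its brightest probe set. limma 3.58.1 in R 4.3.3 was fitted to all genes (lmFit, eBayes with a variance trend, genotype as the only term, Benjamini-Hochberg at 0.05), and to all probe sets for second probe sets. The script was tested on simulated data. Signal over background was not assessed. Named genes were the members, Ncstn, Kit, Spi1 and up to 4 genes of smallest p per list; exceptions are marked, and Ppbp, Clec1b and Tubb1 were named after their values were seen. Members and lists were chosen with earlier results of these data known. Deviations from the group means correlated at -0.242 over genes for equal replicate numbers. The 0.242 for equal sex is the same value with its sign reversed, by construction. Effects shared by sex and effects shared by replicate number enter it with opposite signs. It therefore cannot decide whether replicate numbers pair the samples. Figures used matplotlib 3.10.9.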

Additional observations from a re-analysis of the deposited data

Results flagged for a closer look

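In 3 of the 10 members the female pair and the male pair moved in opposite directions, against 44.3% of all genes. For Gata1 the change in the female pair exceeded that in the male pair by 1.54 on the log2 scale. For Klf1 the excess was 1.45. For Lmo2 the difference was -0.06, with both pairs near 0. With 1 array per sex and genotype none of these differences was tested.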

How the results depend on the processing

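No member passed in any of the 12 alternatives. Genes past the threshold, 0 in the main analysis, numbered 3 after a repeated quantile normalization, 62 after centring on medians, 2 without dim genes and 0 to 27 with 1 array left out. Scaling to the hybridization controls gave a median of -0.025 for the members, 2 higher and 3 lower members without overlap (6.73% and 44.6% of all genes), and medians of -0.19 for partners, -0.16 for erythroid, 0.043 for megakaryocyte and platelet genes and -0.17 for factors of other programs; it turned Tal1 (-0.017), Lyl1 (-0.081), Ldb1 (-0.15), Nfe2 (-0.081) and Klf1 (-0.032). Leaving out dim genes gave 0.47 for megakaryocyte and platelet genes, from fewer genes. With 1 array left out, the lone array was assumed to vary like the others, and sex was no longer balanced. The members' median then ran from 0.086 to 0.22, members without overlap from 6 to 8 higher and from 0 to 2 lower (from 32% to 48.9% and from 22.8% to 40% of all genes, since 1 array against 2 separates more easily), and the erythroid median from -0.14 to 0.23. Gata1 ran from -0.31 to 0.84, Klf1 from -0.66 to 0.99 and Lmo2 from -0.09 to 0.038, Lmo2 being positive without either WT replicate 1 (0.011) or Ncstn KO replicate 1 (0.038). The replicate block called 0 genes and left the members' lowest adjusted p at 0.829, and pairing by sex, the crossed pairing, called 0 genes with 0.367. Neither changed a call.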

Other observations

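Of the 30 erythroid target genes measured, 6 placed Ncstn KO replicate 1 highest and Ncstn KO replicate 2 lowest of the 4 arrays, as Gata1 and Klf1 did. They were Ank1 and Sptb, which encode ankyrin and beta-spectrin of the red cell skeleton, Add2 (beta-adducin), the blood group genes Rhd and Ermap, and the cell cycle factor gene E2f2. Ermap had intensities of 684 and 294 on Ncstn KO replicates 1 and 2 against 353 and 326 on WT replicates 1 and 2, and Add2 had 86.6 and 40.7 in Ncstn KO against 59.9 and 52.4 in WT. The reverse order was held by 0 of the 30. Over all genes the 2 orders were held by 16.3% and 6.79%, so the share of 20% in the list lies near the background. These genes were named after their values were seen.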
